A study of Mus musculus with 6 samples.

Results

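The genes described here are 10 transcription factors that drive or accompany the making of fat cells, taken by symbol from the 55573 genes of the deposited tables: Pparg, Cebpa, Cebpb, Cebpd, Klf4, Klf5, Klf15, Zfp423, Zfp467 and Ebf1. They were measured by RNA-seq of inguinal white adipose tissue (iWAT), a subcutaneous fat depot, in 3 mutant and 3 Wt male mice with 1 library per mouse. All mice were of the strain C57BL/6NTac, were 3 months old, ate regular chow and had no treatment. The mutant mice carry the substitutions K283Q and K288R in the thyroid hormone receptor alpha (THRA), which remove sites where the small protein SUMO is attached. The substitutions were knocked into Thra itself, with the selection cassette excised, so every cell type that expresses Thra carries them, and the tissue holds preadipocytes, mature adipocytes and other cells together. The comparison of mutant with Wt asks how the transcriptional programme of fat cell formation stands in fat of animals whose receptor is less sumoylated.

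Adipogenesis runs as a cascade. Hormonal signals such as cAMP and glucocorticoids first switch on Cebpb and Cebpd, with Klf4 acting just before them, and these factors then turn on Pparg and Cebpa. PPARγ and C/EBPα induce each other and the genes of the mature fat cell, with Klf5, Klf15 and Ebf1 acting on one or both of them. Zfp423 and Zfp467 commit progenitors to the lineage before the cascade starts.

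Each value is a normalised CPM, that is the reads on a gene relative to the library, with a further scaling per mouse set by the authors. Behind the values lie 19607423 to 24228381 reads on genes per mouse, so that 3 reads correspond to a value of 0.126 to 0.157. The genotypes were compared with limma on log2(value + 0.5), and a gene was called when its Benjamini-Hochberg adjusted p was under a false discovery rate (FDR) of 0.05. Of 16868 genes tested, 8.11% were called, 5.50% as higher and 2.61% as lower in mutant mice. Thra itself read 147, 128 and 117 in Wt and 170, 140 and 137 in mutant mice, a log2 fold change of 0.19 ± 0.13 (SE, adjusted p = 0.404), and as the mutation lies in codons, the level of Thra does not check the genotype. In every mutant library genes of high GC content stood lower than in every Wt library. For genes of at least 55.3% GC, the median deviation from the mean of all mice was 0.088 to 0.119 (log2) in Wt and -0.106 to -0.061 in mutant mice, and this is set beside the results it touches.

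Only Zfp467 was called among the 10 factors, and it was lower in mutant mice. The remaining 9 did not pass the FDR, although the 3 mutant mice also lay below all Wt mice in Cebpb. One called gene of 10 compares with the 8.11% called among all genes tested, and 2 genes of 10 whose genotypes did not overlap compare with 30.6% of all genes tested. An unadjusted p below 0.05 was reached by 3 of the 10, namely Zfp467, Cebpb and Klf5. The share of all genes tested at that threshold was not taken, here or for the lists below, so such counts are only descriptive. The median log2 fold change of the 10 was -0.03, beside -0.05 over all genes tested.

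The promoter windows of the 4 genes that the comparisons below turn on, Zfp467 and Cebpb for their lower values and Cebpa and Pparg for their ratio, are shown 5′ to 3′ on the gene's own strand, from 250 bases before to 50 bases after the start listed by RefSeq in GRCm38.p6. Capitals mark TGACG (the core of the site of CREB, the cAMP response factor), AGGTCA (the core of the sites of many nuclear receptors, thyroid hormone receptors included), GGGCGG (the GC box) and TATAAA (the TATA box), each searched on both strands.
Zfp467, chr6:48445041-48445340, minus strand: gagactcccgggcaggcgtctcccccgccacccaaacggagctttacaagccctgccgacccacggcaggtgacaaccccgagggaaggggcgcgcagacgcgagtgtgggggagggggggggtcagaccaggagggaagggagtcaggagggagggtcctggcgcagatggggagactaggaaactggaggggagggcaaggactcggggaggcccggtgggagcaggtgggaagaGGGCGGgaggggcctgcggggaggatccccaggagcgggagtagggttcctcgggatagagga
Cebpb, chr2:167688665-167688964, plus strand: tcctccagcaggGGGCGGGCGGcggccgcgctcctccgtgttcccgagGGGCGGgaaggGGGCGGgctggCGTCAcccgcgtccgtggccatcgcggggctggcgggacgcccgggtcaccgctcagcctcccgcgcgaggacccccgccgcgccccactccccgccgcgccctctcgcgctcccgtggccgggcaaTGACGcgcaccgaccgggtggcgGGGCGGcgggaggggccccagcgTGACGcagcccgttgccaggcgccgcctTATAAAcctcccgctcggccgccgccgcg
Cebpa, chr7:35119043-35119342, plus strand: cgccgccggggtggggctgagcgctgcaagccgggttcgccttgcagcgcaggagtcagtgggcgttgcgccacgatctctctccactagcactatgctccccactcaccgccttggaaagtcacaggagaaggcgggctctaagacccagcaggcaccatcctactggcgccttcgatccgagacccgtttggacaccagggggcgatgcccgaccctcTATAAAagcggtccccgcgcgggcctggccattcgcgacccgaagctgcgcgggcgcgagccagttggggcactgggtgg
Pparg, chr6:115360894-115361193, plus strand: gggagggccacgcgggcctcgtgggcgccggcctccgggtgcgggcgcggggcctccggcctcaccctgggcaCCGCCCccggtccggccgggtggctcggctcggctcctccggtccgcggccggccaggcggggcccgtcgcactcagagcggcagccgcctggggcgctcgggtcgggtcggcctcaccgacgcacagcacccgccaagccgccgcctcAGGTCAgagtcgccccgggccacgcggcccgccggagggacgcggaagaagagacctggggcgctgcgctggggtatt
The Cebpb window held TGACG at 3 places and GGGCGG at 5, 2 of which overlap, with a TATAAA 21 bases after the listed start. Cebpa held only the TATAAA, which began 30 bases before its start. Pparg held an AGGTCA that began 28 bases before its start and a GC box, and Zfp467 held a single GC box that began 13 bases before its start. RefSeq lists 2 further Pparg windows, not printed here. The one from 115362099 held a TATAAA that began 29 bases before its start, an AGGTCA 9 bases before it and 2 GC boxes, and the one from 115421816 held none of the 4 motifs and was 40.3% G and C. Over all 32851 RefSeq windows of this length, TGACG was found in 20.8%, AGGTCA in 16.3%, GGGCGG in 35.7% and TATAAA in 13.6%. All 4 windows were richer in G and C (69.7% for Zfp467, 80.7% for Cebpb, 67.3% for Cebpa and 80.3% for Pparg) than the median window, at 52.7%. Of the 10 factors 8 had a window, and Cebpd and Klf5 did not match. These letters describe the sequence and do not show that a protein binds there.

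To compare levels between genes, the values were divided by the length of all exons of the gene. On this scale Cebpa was the most abundant factor, with 208 normalised CPM per kb over the 6 mice, and Klf5 the least, with 0.580, a 358-fold span. Pparg followed Cebpa at 75.9 per kb, and neither the range of Cebpa (159 to 271) nor that of Pparg (62.5 to 99.4) met its neighbour's. Klf15 (24.6), Klf4 (21.9) and Ebf1 (21.0) formed a middle group whose ranges overlapped, so their order is not beyond the spread between mice. Cebpb (13.4), Zfp467 (10.8) and Zfp423 (8.56) followed, with overlapping ranges from one to the next but the same order within each of the 6 mice. Cebpd stood at 4.15 per kb. The 2 factors of the terminal step were thus the most abundant, and the early factors Cebpb and Cebpd lay well under them.

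**Figure D1:**
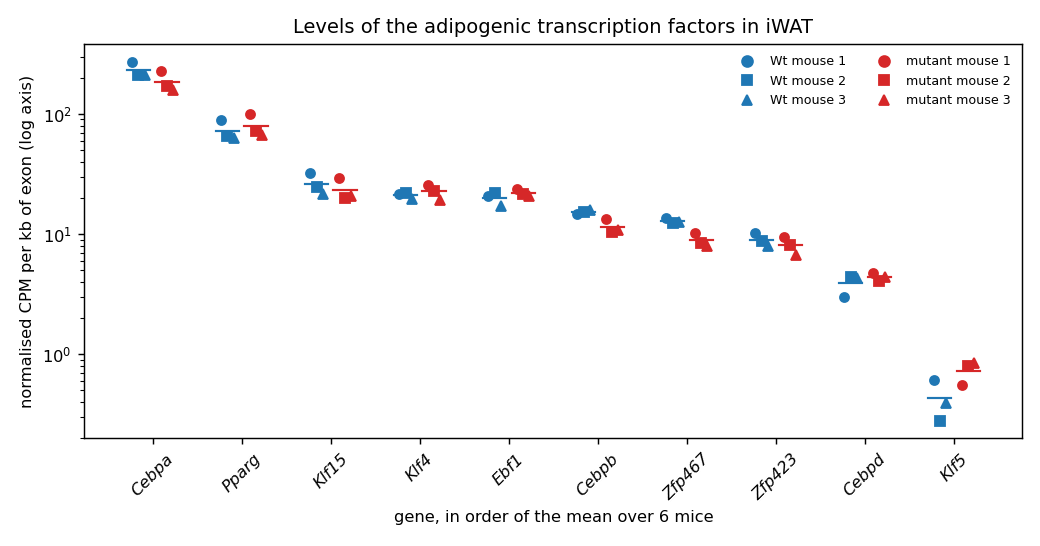
Normalised CPM per kb of exon (log axis) of each factor in each mouse, with Wt in blue, mutant in red, a marker shape for each mouse number and a line at the genotype mean. Cebpa and Pparg stand above all others in every mouse, and Klf5 lies lowest, at 0.580 per kb over the 6 mice.

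Zfp467 (ENSMUSG00000068551) encodes a zinc finger protein that favours the adipocyte over the osteoblast fate of mesenchymal progenitors, and lies at chr6:48427697-48445825 on the minus strand (GRCm38). It read 57.6, 52.1 and 53.8 in Wt and 43.8, 35.7 and 33.9 in mutant mice. The highest mutant mouse lay below the lowest Wt mouse, a pattern that 15.7% of all genes tested showed in this direction. The means were 54.5 ± 2.79 (SD, n = 3) in Wt and 37.8 ± 5.26 (SD, n = 3) in mutant mice, which is 69.3% of Wt. The log2 fold change was -0.53 ± 0.11 (SE), with a 95% confidence interval of -0.80 to -0.26 and an adjusted p of 0.0410 by limma. The count tests run on the recovered reads, 724 to 1374 per mouse, gave an adjusted p of 0.0458 by edgeR's quasi-likelihood test and 0.00250 by DESeq2. The call was lost without Wt mouse 1 (limma adjusted p = 0.103), Wt mouse 2 (0.121), Wt mouse 3 (0.126), mutant mouse 2 (0.148) or mutant mouse 3 (0.107), and held without mutant mouse 1 (0.0139). After a GC correction the genotypes still did not overlap and the log2 fold change was -0.33, with an adjusted p of 0.159.

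Zfp423 (ENSMUSG00000045333, chr8:87661810-87959595, minus strand) marks and commits preadipocytes and restrains the beige programme in mature fat. It read 57.3, 49.5 and 44.8 in Wt and 53.0, 45.5 and 37.9 in mutant mice. The genotypes overlapped, with mouse 1 the highest and mouse 3 the lowest in both. Its log2 fold change was -0.16 ± 0.15 (SE, interval -0.52 to 0.20, limma adjusted p = 0.541).

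Ebf1 (ENSMUSG00000057098, chr11:44617317-45008091, plus strand) acts in preadipocytes upstream of Pparg and Cebpa and is also a defining factor of B cells. It read 201, 214 and 167 in Wt and 233, 210 and 201 in mutant mice. The ranges overlapped, with a log2 fold change of 0.15 ± 0.12 (SE, interval -0.14 to 0.44, limma adjusted p = 0.472). iWAT can hold a lymph node, and B cell markers varied widely between these mice. Cd22 read 104, 219 and 237 in Wt and 0.734, 128 and 199 in mutant mice, and Ighm, the heavy chain of IgM, read 711, 930 and 1062 in Wt and 494, 762 and 833 in mutant mice. Both were lowest in mutant mouse 1, where Ebf1 was highest, and the part of B cells in the Ebf1 values was not tested.

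Among the early factors, Cebpb was lower and Cebpd and Klf4 were close to Wt. Cebpb (ENSMUSG00000056501, chr2:167688915-167690418, plus strand) encodes C/EBPβ, which responds to cAMP and opens the cascade. It read 22.1, 23.1 and 24.1 in Wt and 20.2, 15.6 and 16.1 in mutant mice. All mutant mice lay below all Wt mice, mutant mouse 1 by the least. The means were 23.1 ± 0.993 and 17.3 ± 2.54 (SD, n = 3 each), or 75.0% of Wt, with a log2 fold change of -0.41 ± 0.12 (SE, interval -0.71 to -0.12). It did not pass the FDR (limma adjusted p = 0.1001), and passed it without mutant mouse 1 (0.0414). Cebpb has the highest GC content of the 10 transcripts (67.2%), and after the GC correction the genotypes overlapped and the log2 fold change was -0.17 (adjusted p = 0.425). It shares 312 exonic bases with Tmem189 on the other strand, whose mean value is 1.72 times its own and whose log2 fold change was 0.17 (adjusted p = 0.293). Use of strand in the counting is not given in the sources used here, so reads of the 2 genes in those bases may not be told apart.

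Cebpd (ENSMUSG00000071637, chr16:15887286-15891031, plus strand) encodes C/EBPδ, a partner of C/EBPβ that glucocorticoids induce. It read 11.2, 16.4 and 16.2 in Wt and 17.8, 15.3 and 16.3 in mutant mice. Only Wt mouse 1 stood apart, below the others. Cebpd had a log2 fold change of 0.18 ± 0.17 (SE, interval -0.22 to 0.59, limma adjusted p = 0.518). Cebpd shares 562 exonic bases with Spidr on the other strand, which has 0.905 times its mean value and a log2 fold change of -0.02.

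Klf4 (ENSMUSG00000003032, chr4:55527143-55532466, minus strand), which activates Cebpb at the onset of differentiation, read 65.7, 67.6 and 59.7 in Wt and 78.7, 69.8 and 58.3 in mutant mice. The mutant mice spanned the whole Wt range. Its log2 fold change was 0.09 ± 0.12 (SE, interval -0.21 to 0.39, limma adjusted p = 0.674) and turned to -0.01 without mutant mouse 1.

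The Klf factors that act later had small or uncertain differences. Klf5 (ENSMUSG00000005148, chr14:99298691-99315036, plus strand), which C/EBPβ and C/EBPδ induce and which acts on Pparg, read 3.18, 1.46 and 2.06 in Wt and 2.88, 4.13 and 4.40 in mutant mice, on only 30 to 94 reads. Mutant mice 2 and 3 lay above all Wt mice, and mutant mouse 1 lay within the Wt range. The log2 fold change of 0.68 ± 0.28 (SE, interval 0.02 to 1.35) was the largest of the 10 in size but did not pass the FDR (limma adjusted p = 0.194). Epithelial cells also express Klf5. The summed value of 10 epithelial markers was 120 in Wt mouse 1, where Klf5 was highest among Wt, and 9.92 to 29.98 in the other 5 mice. It was lowest, at 9.92, in mutant mouse 3, where Klf5 was highest of all mice. The part of epithelial cells in the Klf5 values was not tested.

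Klf15 (ENSMUSG00000030087, chr6:90462576-90475238, plus strand), a glucocorticoid-responsive factor that induces Pparg and the glucose transporter Slc2a4, read 89.3, 68.2 and 59.9 in Wt and 81.3, 55.3 and 57.4 in mutant mice. Mouse 1 was the highest in both genotypes and the ranges overlapped. For Klf15 the log2 fold change was -0.17 ± 0.20 (SE, interval -0.65 to 0.32, limma adjusted p = 0.632).

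The 2 factors of the terminal step had differences of opposite sign, and neither passed the test. Pparg (ENSMUSG00000000440, chr6:115360951-115490399, plus strand), the nuclear receptor that is needed for all adipocytes, read 263, 193 and 185 in Wt and 293, 214 and 197 in mutant mice. The ranges overlapped almost fully, and the log2 fold change was 0.13 ± 0.20 (SE, interval -0.35 to 0.61, limma adjusted p = 0.702), turning to -0.04 without mutant mouse 1. Cebpa (ENSMUSG00000034957, chr7:35119293-35121928, plus strand), which sustains Pparg and insulin sensitivity, read 714, 557 and 553 in Wt and 597, 450 and 419 in mutant mice. Only mutant mouse 1 reached into the Wt range. The log2 fold change of Cebpa was -0.32 ± 0.18 (SE, interval -0.75 to 0.11, limma adjusted p = 0.326) and became -0.07 after the GC correction. Its transcript is 62.6% G and C.

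Much of the spread of these genes was between mice and not between genotypes. Of the 10 factors, 9 were highest in mouse 1 among the mutant mice, beside 43.3% of all genes tested, and 6 were highest in mouse 1 among Wt, beside 40.4%. Pparg, Cebpa, Klf15, Zfp423 and Zfp467 did so in both. The summed value of 25 target genes of the mature adipocyte was also highest in mouse 1 of each genotype, with 58253, 44010 and 40009 in Wt and 54615, 42748 and 35469 in mutant mice. In whole tissue, fewer adipocytes and less RNA per adipocyte cannot be told apart.

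Taken within a mouse, Cebpa stood closer to Pparg in mutant than in Wt mice. This ratio was chosen after the values were seen, so it is described with no test. Per kb of exon, Cebpa was 3.04, 3.23 and 3.36 times Pparg in Wt and 2.28, 2.36 and 2.39 times in mutant mice. The means were 3.21 ± 0.158 and 2.34 ± 0.0545 (SD, n = 3 each), a gap of -0.45 on the log2 scale, and no mutant mouse came near a Wt mouse although both genes varied between mice. After the GC correction the ratios were 2.80, 2.92 and 3.06 in Wt and 2.45, 2.61 and 2.62 in mutant mice, which still did not overlap, and the gap was -0.19. Of the ratios of the other 9 factors to Pparg, 5 were lower in every mutant mouse than in every Wt mouse (Cebpa, Cebpb, Klf15, Zfp423 and Zfp467), beside 9.21% of all genes tested. After the GC correction 3 remained apart (Cebpa, Klf15 and Zfp467), beside 6.46% of all genes tested. All 9 ratios share the Pparg value of each mouse and are not independent of each other.

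**Figure D2:**
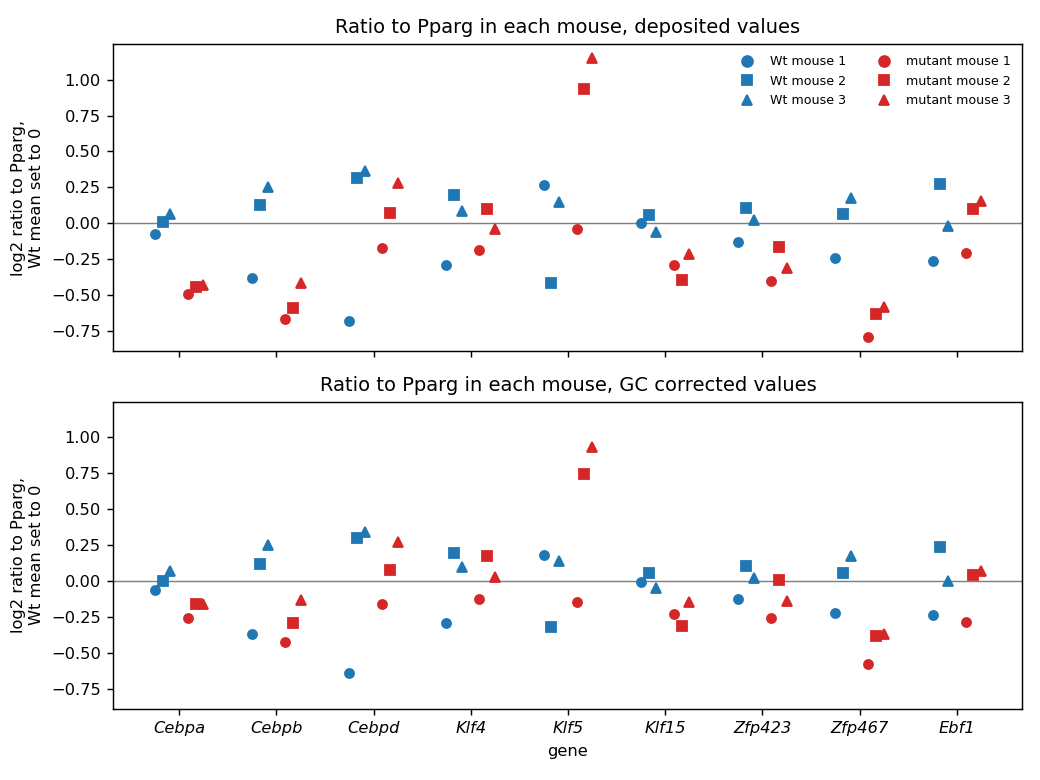
Log2 ratio of each factor to Pparg in each mouse, with the Wt mean of each gene set to 0, for the deposited values (top) and the GC-corrected values (bottom), Wt in blue and mutant in red. The gap of Cebpa is -0.45 in the top panel and -0.19 in the bottom panel, with no overlap in either.

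The direction of the 10 differences sorted with the GC content of the transcripts. The 5 factors of 54.9% to 67.2% GC (Klf15, Zfp423, Zfp467, Cebpa and Cebpb) all had negative log2 fold changes, and the 5 of 43.1% to 54.6% (Ebf1, Klf5, Pparg, Cebpd and Klf4) all had positive ones. Over all genes tested, the median log2 fold change went from 0.03 in the lowest of 20 GC bins to -0.29 in the highest, which holds Cebpa and Cebpb. Taking the median of each bin out of each library, an alternative added after seeing the data, left Zfp467 with the largest negative log2 fold change of the 10 (-0.33) and brought Cebpa to -0.07, Zfp423 to -0.01 and Klf15 to -0.11. None of the 10 was then called, beside 5.91% of all genes called. Separately, 1 of the 10 had an unadjusted p below 0.05, a threshold at which the share of all genes was not taken. Klf5 stayed at 0.63 and Pparg at 0.12. GC content moves with genotype in these libraries, so its part and that of genotype in these differences cannot be told apart.

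**Figure D3:**
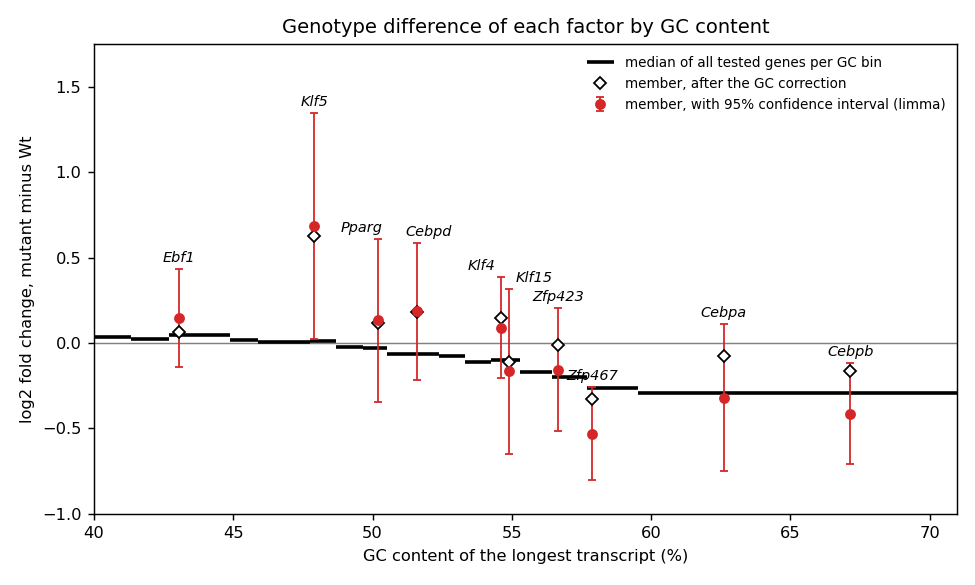
Log2 fold change of mutant minus Wt against the GC content of the longest transcript, with red points and 95% confidence intervals for the deposited values, open diamonds after the GC correction, and black lines for the median of all tested genes in each of 20 GC bins. The factors of high GC content lie below 0 and move toward 0 with the correction, with Zfp467 going from -0.53 to -0.33.

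Among 30 other regulators that promote adipogenesis, 29 were tested, and 1 rose and 3 fell. Arntl, the clock factor BMAL1, rose from 10.1, 14.8 and 13.5 in Wt to 38.7, 42.0 and 35.7 in mutant mice (log2 fold change 1.58 ± 0.16 SE, limma adjusted p = 0.00309). The genotypes lay far apart, and the call held after the GC correction (0.00347) and without any 1 mouse (at most 0.0227). Tle3, a cofactor that works with PPARγ at its target genes, fell from 146, 158 and 161 to 91.3, 106 and 110 (log2 fold change -0.60 ± 0.10 SE, limma adjusted p = 0.0151). Srebf1, which drives fatty acid synthesis, fell from 448, 343 and 339 to 251, 196 and 199 (-0.80 ± 0.16 SE, limma adjusted p = 0.0304). Rxrb, which encodes a retinoid X receptor, the family of dimer partners of PPARγ and of thyroid hormone receptors, fell from 42.9, 46.1 and 49.1 to 29.1, 32.04 and 36.6 (-0.50 ± 0.11 SE, limma adjusted p = 0.0432). No mutant mouse overlapped with Wt in any of these 4 genes. After the GC correction Tle3 stayed past the FDR (0.0265) and Srebf1 (0.0799) and Rxrb (0.275) did not. The 4 calls came down to 2 without Wt mouse 1 and to 1 without Wt mouse 2, Wt mouse 3 or mutant mouse 2. The median log2 fold change of the list was -0.03, close to that of all genes.

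Of 30 regulators that inhibit adipogenesis, all were tested, 3 fell and 27 did not pass. Id3, which blocks basic helix-loop-helix factors, fell from 67.2, 58.8 and 60.6 to 37.7, 46.4 and 33.8 (log2 fold change -0.67 ± 0.13 SE, limma adjusted p = 0.0315). Gata3, a zinc finger factor that holds preadipocytes undifferentiated, fell from 14.7, 8.27 and 11.7 to 1.36, 4.17 and 3.88 (-1.80 ± 0.40 SE, limma adjusted p = 0.0441). After the GC correction the adjusted p was 0.0659 for Id3 and 0.0509 for Gata3, and the list held no call. A single call was left without Wt mouse 1, Wt mouse 3, mutant mouse 2 or mutant mouse 3, and none without Wt mouse 2. Gata3 also marks T cells and other lymphocytes. Among the mutant mice Gata3 was lowest in mouse 1, as was Cd22. Among the Wt mice the order differed, with Gata3 highest in mouse 1, where Cd22 was lowest. The part of lymphocytes in the Gata3 values was not tested. The list's median log2 fold change was -0.11.

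Both lists thus held genes that fell, 3 of 29 tested in the promoting and 3 of 30 in the inhibiting list. These counts stand beside 2.61% of all genes called as lower. In either direction the counts were 4 of 29 and 3 of 30, beside 8.11% of all genes. After the GC correction the promoting list kept 2 calls, 1 of them lower, and the inhibiting list 0, beside 5.91% of all genes. The lists were chosen with earlier results of these data known, so these shares are descriptive.

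**Figure D4:**
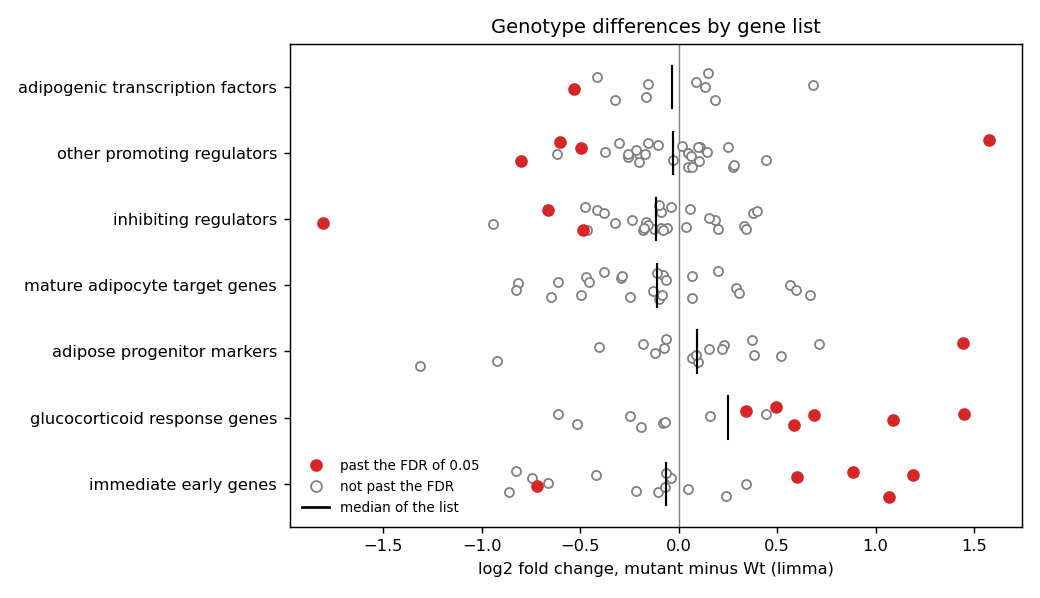
Log2 fold change of mutant minus Wt for each tested gene of 7 lists, with filled red points for genes past the FDR of 0.05, open points for the rest and a black line at the list's median. Zfp467 is the only filled point among the adipogenic factors, and 6 of the 14 glucocorticoid response genes are filled, all to the right of 0.

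Downstream of the factors, 25 target genes of PPARγ and C/EBPα in mature adipocytes had a median log2 fold change of -0.11. With limma 0 of 25 passed the FDR, beside 8.11% of all genes, while 5 had an unadjusted p below 0.05. The edgeR test called 0, and DESeq2 called 5, of which 4 were lower and 1 was higher in mutant mice. Of all 25, the most abundant were Lpl and Fabp4. Lpl, a lipase that frees fatty acids for uptake, read 8158, 6234 and 5050 in Wt and 11844, 9261 and 7573 in mutant mice (log2 fold change 0.56, limma adjusted p = 0.428). Fabp4, a fatty acid carrier, read 9575, 7560 and 6777 in Wt and 9361, 7365 and 5789 in mutant mice (-0.10, limma adjusted p = 0.891). Both are known targets of PPARγ and both overlapped between genotypes. Plin4 (log2 fold change -0.82), Pck1 (-0.83), Angptl4 (-0.61), Cfd (-0.65) and Pnpla2 (-0.49) were lower in every mutant mouse than in every Wt mouse. That pattern was seen in 15.7% of all genes tested. Lep (0.67) and Retn (0.59) went the other way with overlapping genotypes, and none of these passed the FDR with limma. Adiponectin, Adipoq, which marks mature fat cells, was abundant in all mice (1332 to 2219). In the brown and beige list, 7 of 8 genes were tested and 1 fell, beside 2.61% of all genes called as lower. It was Ucp1, the uncoupler of thermogenic fat, with 15.5, 7.39 and 15.3 in Wt and 3.46, 3.23 and 3.51 in mutant mice (-1.69, limma adjusted p = 0.0187). Among 18 progenitor markers 1 rose, which is near the 5.50% of all genes called as higher. It was Fmo2, from 39.5, 31.4 and 34.7 to 113, 95.8 and 82.5 (1.45, limma adjusted p = 0.00300). In that list 7 of 18 had an unadjusted p below 0.05, edgeR called 1 as higher, and DESeq2 called 4 as higher and 1 as lower. Fmo2 kept its call without any 1 mouse (at most 0.0221), and Ucp1 did not (up to 0.0821).

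The signals that start the cascade were not measured, and only genes that respond to them are described. This list and the next were chosen with earlier results of these data known. The shares of all genes set beside them are therefore descriptive and test no signal. Of 14 glucocorticoid response genes, 6 rose (Cdkn1a, Errfi1, Tsc22d3, Dusp1, Fkbp5 and Sgk1), beside 5.50% of all genes called as higher, and the list's median log2 fold change was 0.25. Cdkn1a, an inhibitor of cyclin-dependent kinases, went from 21.2, 21.6 and 20.7 to 67.7, 56.4 and 52.4 (1.45, limma adjusted p = 0.00166). Errfi1, a feedback inhibitor of the EGF receptor, went from 36.2, 36.3 and 37.8 to 89.1, 78.5 and 70.0 (1.09, limma adjusted p = 0.00272). Tsc22d3, the glucocorticoid-induced leucine zipper, which also binds DNA and restrains adipogenesis, went from 99.96, 108 and 93.5 to 145, 151 and 157 (0.59, limma adjusted p = 0.0102). The mutant mice lay above the Wt mice in all 3. Leaving out any 1 Wt mouse brought the 6 calls to 3, and the GC correction to 5. Cebpd and Klf15, which glucocorticoids also induce, had log2 fold changes of 0.18 and -0.17 that did not pass.

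Of 18 immediate early genes, which growth factors, cAMP or stress induce within minutes, 4 rose (Egr1, Fosb, Fos and Fosl2) and 1 fell (Jund), beside 5.50% of all genes called as higher and 2.61% as lower. After the GC correction the 4 that rose kept their calls, and Jund, whose transcript is 67.1% G and C, went from -0.72 to -0.47 and lost its call (adjusted p = 0.158). Egr1 went from 28.9, 39.8 and 37.3 to 84.9, 66.4 and 72.0 (log2 fold change 1.07, limma adjusted p = 0.00974), Fosb from 1.89, 2.33 and 2.86 to 6.66, 6.24 and 5.10 (1.19, 0.0137), and Fos from 5.53, 5.25 and 4.38 to 12.1, 9.02 and 8.38 (0.88, 0.0331). In all 3 the genotypes lay apart, while the list's median was -0.07. The 5 calls came down to 1 to 3 whichever mouse was left out. Cebpb, which the same signals induce, had a log2 fold change of -0.41 that did not pass.

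Among the lists of markers of other cells, only the mesothelial list had most of its genes called. The counts below stand beside 5.50% of all genes called as higher and 2.61% as lower. Of 8 mesothelial markers 7 rose, led by Upk1b, Msln and Wt1, with a summed value of 8.32 to 34.0 in Wt and 42.8 to 85.7 in mutant mice. Wt1, the Wilms tumour factor of mesothelium and of visceral fat progenitors, was at 0, 0.0486 and 0.0421 in Wt and at 2.88, 1.39 and 2.81 in mutant mice, with Wt at 3 reads or fewer. Of 12 skeletal muscle markers 1 rose, Myh1, with a summed value of 12243 to 26235 in Wt and 19968 to 31305 in mutant mice. Of 10 macrophage markers 1 fell, C1qa (-0.50, limma adjusted p = 0.0305, and 0.143 after the GC correction), with sums of 1383 to 1656 and 1300 to 1466. For 10 B cell, 10 endothelial and 10 epithelial markers limma called 0, with median log2 fold changes of -2.30, -0.09 and -0.80. At an unadjusted p below 0.05 the counts were 0, 6 and 1, edgeR called 0 in each, and DESeq2 called 0, 3 and 2. B cell markers summed to 1299 to 2354 in Wt and 499 to 1967 in mutant mice, and endothelial markers to 1086 to 1202 and 1073 to 1251. The part of these cells in the values of the 10 factors was not tested.

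**Figure D5:**
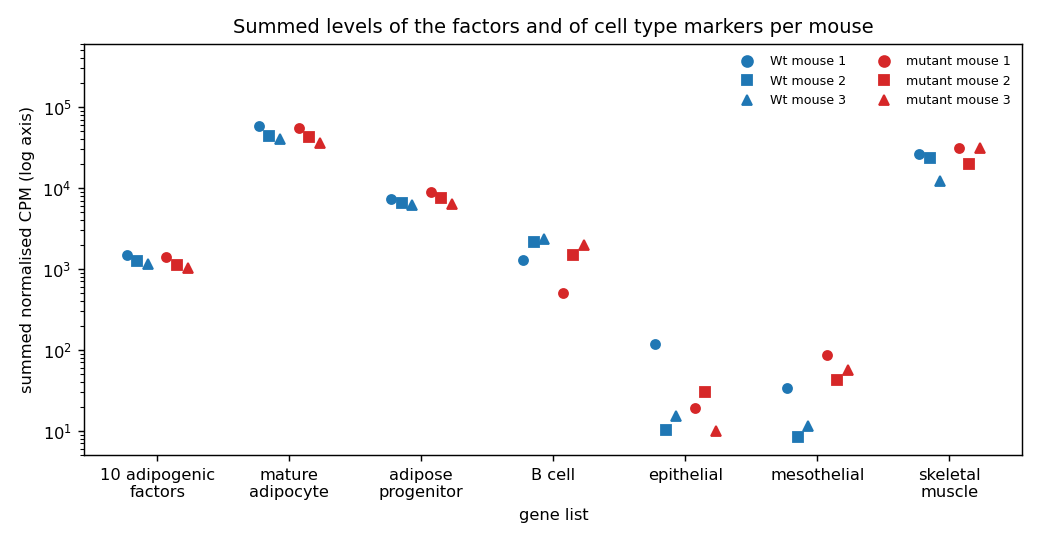
Summed normalised CPM (log axis) of the 10 factors and of 6 lists of cell type markers in each mouse, with Wt in blue, mutant in red and a marker shape for each mouse number. The factors and the mature adipocyte genes are highest in mouse 1 of each genotype, B cell markers are lowest there, epithelial markers stand at 120 in Wt mouse 1 alone, and mesothelial markers are higher in every mutant mouse (42.8 to 85.7) than in every Wt mouse (8.32 to 34.0).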

How the data were processed

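Total RNA of iWAT was sequenced on Illumina libraries, 1 per mouse, and the labels gave the genotype and number of each mouse. The submitters' processing notes name mm10, Bowtie2 2.1.0, RSEM 1.2.15 and edgeR, without roles or order, and strand use is not given in the sources used here. The deposited values hold a normalized signal, namely CPM of each gene after scaling of every library (factors of 0.962 to 1.109 against its reads). All values above 0 (100.0%, tolerance 0.01 reads) were whole multiples of 1 step, which gave the reads. As 27 symbols had turned into dates, genes were matched by Ensembl identifier, and 55480 (99.8%) were found in GENCODE M21 (GRCm38, the assembly of mm10) for coordinates, exon length and GC content.

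Mutant was tested against Wt by limma 3.58.1 (R 4.3.3, mean-variance trend) on log2(value + 0.5). The recovered reads went through filterByExpr (edgeR 4.0.16), which kept 16868 genes, with Benjamini-Hochberg adjustment. Fold changes are on this scale and understate the change of low genes. The script was tested on simulated data. With 3 mice against 3, an exact permutation test cannot go below p = 0.1. Libraries of a genotype differed by more than the sampling noise, so all 6 count as samples, and nothing says beyond the mouse numbers that they came from separate litters. Precision from reads covers counting error only.

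The 10 factors and the gene lists were chosen with earlier results of these data known. All 10 were named, with every called gene of the promoting and inhibiting lists, up to 3 called genes of each other list, or the 2 most abundant where none was called. One called gene of the inhibiting list is counted but not reported here. Adipoq, further target genes of the mature adipocyte and the other called glucocorticoid response and immediate early genes were named in addition, after their values were seen. Ddit3 is listed under 2 identifiers, and the more abundant was used. Alternatives were other filters, pseudocounts, scalings and tests, the replicate number as a block, leaving out each mouse, and, added after seeing the data, a correction for GC content in 20 bins, that correction with the block, and leaving out 1192 genes whose exons meet those of an opposite-strand gene of 10 or more times their level. RefSeq windows were matched by symbol, with motifs read as exact letters.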

Additional observations from a re-analysis of the deposited data

How the results depend on the processing

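Of the 10 factors, 1 was called in the comparison as reported. The count was 0 with no filter (Zfp467 adjusted p = 0.0503), with at least 10 reads in every library (0.0566), after the GC correction (0.159) and without genes overlapped on the other strand (0.0739), where 2, 3, 1 and 3 of the 10 had an unadjusted p below 0.05. Leaving out 1 mouse gave 0 to 2. Other pseudocounts and scalings, edgeR, DESeq2 and an FDR of 0.1 left it at 1. The log2 fold change of Zfp467 was negative in all 20 fits, from -0.64 to -0.33. Leaving out 1 mouse moved Pparg over -0.039 to 0.29 and Klf4 over -0.010 to 0.20, with the sign changed in both without mutant mouse 1. The log2 gap between mutant and Wt mice in the ratio of Cebpa to Pparg was -0.45 as reported. It was -0.19 after the GC correction and -0.49 to -0.42 when 1 mouse was left out. Over all genes the 1368 calls became 598 with at least 10 reads in every library, 2118 with DESeq2, 2263 at an FDR of 0.1, 344 without overlapped genes and 554 to 1005 without 1 mouse. The cause of these changes was not tested.

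With the replicate number as a block, 2 of the 10 were called (Cebpa, adjusted p = 0.0218, and Zfp467, 0.0122) and 4063 genes in all, and with the GC correction as well, 1 (Zfp467, 0.0357) and 3583. Deviations of mice with the same number correlated at 0.69, 0.06 and 0.56 for mice 1, 2 and 3, and Wt mouse 2 correlated best with mutant mouse 3 (0.33), so the numbers were not taken as pairs. Klf5 rests on 30 to 94 reads per mouse, and a difference of its size was not resolved at this depth and number of mice.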
